A study of Mus musculus with 10 samples.

Results

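The nuclear genes of the mitochondrial respiratory chain and ATP synthase were followed in salivary gland cells of female NOD/shiLtJ mice, which become diabetic through autoimmunity and whose salivary glands are often inflamed. A gene was a member if its symbol starts with Nduf, Uqcr, Cox4, Cox5, Cox6, Cox7, Cox8 or Atp5, or is Sdha, Sdhb, Sdhc, Sdhd, Cyc1 or Cycs. Only Affymetrix probe sets with 1 gene symbol were used, and the brightest probe set stood for each gene. The rule took 91 of the 22180 genes measured in this way, and 88 of the 91 passed a filter on dim probe sets. The arrays came from 4 mice with type 1 diabetes at 21 weeks of age, 3 mice without diabetes at 21 weeks and 3 mice without diabetes at 6 weeks. All mice were female and of the 1 strain, and no treatment is named. Dispase II and collagenase IV were used to break up the gland tissue, and RNA came from the filtered cells. The labels name the salivary gland, not which of its glands, and they do not say how diabetes was found or how long it had lasted. The labels number the samples within each group, and each number was taken to be 1 mouse. Nothing else in the labels says that they are separate animals, and if they are not, the p-values measure a partly technical spread.

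The respiratory chain passes electrons from NADH and succinate to oxygen in the inner mitochondrial membrane. Complex I takes them from NADH and complex II from succinate, ubiquinone carries them to complex III, and cytochrome c carries them on to complex IV, which reduces oxygen. Complexes I, III and IV pump protons, and complex V, the ATP synthase, uses the proton gradient to make ATP. Salivary ducts reabsorb sodium chloride against a gradient, and their striated segments are packed with mitochondria. Complex II is wholly nuclear encoded, and the other complexes also hold subunits encoded in mitochondrial DNA.

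The members comprised 32 subunits of complex I, 4 of complex II, 8 of complex III, cytochrome c, 18 of complex IV, 17 of complex V, 9 assembly factors or related genes and 2 pseudogenes. The 3 that did not pass the filter were Cox7b2, a testis isoform of a complex IV subunit, and the pseudogenes Atp5c1-ps and Uqcrh-ps1. For 9 further symbols of the rule, among them Cox6c, Ndufs6 and Uqcr10, the only probe sets carry several symbols, and they were left out. None of the 13 mitochondrially encoded subunits had a probe set with 1 symbol, so they are not analysed here. Levels are log2 intensities that are comparable between arrays for 1 gene and not between genes. Changes are differences between group means of log2 values, given with the standard error (SE) from a limma fit to all 10 arrays. A change was called at a Benjamini-Hochberg adjusted p under 0.05 over the 18826 genes tested.

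The arrays carried salivary transcripts in every group. Klk1, a kallikrein of the duct, lay between 12.26 and 13.03 on all 10 arrays. Aqp5, the water channel of acinar cells, lay between 8.59 and 9.23, and the 25th percentile of the arrays was 2.58 to 2.70. The groups differed in the cells or secretory genes they held. Of 13 tested markers of the granular convoluted tubule, a kallikrein-storing part of the ducts in mouse submandibular glands, 12 fell in the diabetic glands against nondiabetic glands of 21 weeks. Of 13 duct epithelium markers 10 were lower, with a median of −0.40, and 2 fell. Their mean was 5.77 to 5.99 on the diabetic arrays, against 6.16 to 6.30 on the nondiabetic 21-week arrays, without overlap, and 5.93 to 6.33 on the 6-week arrays. Of 11 serous and parotid-type cargo genes, 6 rose. Of 7 macrophage markers 2 rose, of 7 adipocyte markers 3 and of 5 myoepithelial and smooth muscle markers 2. Of 11 immediate-early genes, which are also induced by tissue dissociation, 10 rose. In RNA of whole cell preparations, fewer cells of a type and less RNA per cell cannot be told apart. Array 3 of the nondiabetic 21-week group and array 4 of the diabetic group stood apart from the others. Their correlation with each other was the lowest of any pair (Pearson's r = 0.917 over the 18826 genes tested).

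The first comparison set diabetic glands against nondiabetic glands of the same age. Most respiratory chain genes were somewhat lower in the diabetic glands, and 1 of them passed the test. Of the 88 members tested, 79 had a log2 change below 0 and 9 above 0, while 44% of all genes tested lay below 0. The median change was −0.19 over the members and 0.03 over all genes, and the members ran from −1.25 to 0.43. Only Cox8b fell past the adjusted threshold, and 0 members rose, while 0.34% of all genes were called lower and 1.1% higher by the same limma test. At an unadjusted p under 0.05, 14 members were lower and 1 was higher, against 5.04% and 10.8% of all genes. The count of 14 was 29 without diabetic array 2, 7 without diabetic array 3, 6 without diabetic array 4 and 6 without nondiabetic 21-week array 1. After quantile normalization 86 of 88 members were lower, with a median of −0.29, and 44 were lower at an unadjusted p under 0.05. The median over all genes was −0.02 in that setting. The shares of all genes at this p were not counted after quantile normalization or without single arrays, so these counts lack that background. The diabetic arrays all lay below the nondiabetic 21-week arrays for 14 members and above them for 0, which held for 4.98% and 9.11% of all genes.

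The diabetic mice differed widely among themselves. The median over the 88 members of each gene's deviation from its own mean over 10 arrays was −0.01, 0.06, −0.19 and −0.35 on diabetic arrays 1 to 4. It was 0.11, 0.04 and 0.05 on the nondiabetic 21-week arrays and 0.09, 0.04 and 0.13 on the nondiabetic 6-week arrays. Diabetic arrays 3 and 4 were thus low and diabetic arrays 1 and 2 lay close to or among the nondiabetic arrays. Over all genes tested, the median deviation was −0.14 on nondiabetic 21-week array 3 and between −0.01 and 0.03 on the other arrays. Diabetic array 4 was the lowest of all 10 arrays for 55 members and diabetic array 3 for 15. Without diabetic array 4, the median change was −0.12 and 70 of 88 members were lower. The mean level of the 13 tubule markers was 7.05, 7.39, 6.43 and 5.47 on diabetic arrays 1 to 4, between 9.63 and 10.28 in nondiabetic glands of 21 weeks and between 8.57 and 9.03 in nondiabetic glands of 6 weeks. The order of the 4 diabetic arrays was the same for both measures. Diabetic array 4 also had the highest mean of 7 T cell markers, 5.61 against 4.36 to 4.43 on the other diabetic arrays, 4.05 to 4.78 at 21 weeks without diabetes and 3.49 to 3.78 at 6 weeks. Its mean of 6 B cell markers was 5.86, against 3.94 to 4.34 on the other diabetic arrays. The part of these cells, and of the duct, macrophage, adipocyte, myoepithelial, fibroblast and mucous cells above, in the respiratory chain values was not tested.

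**Figure D1:**
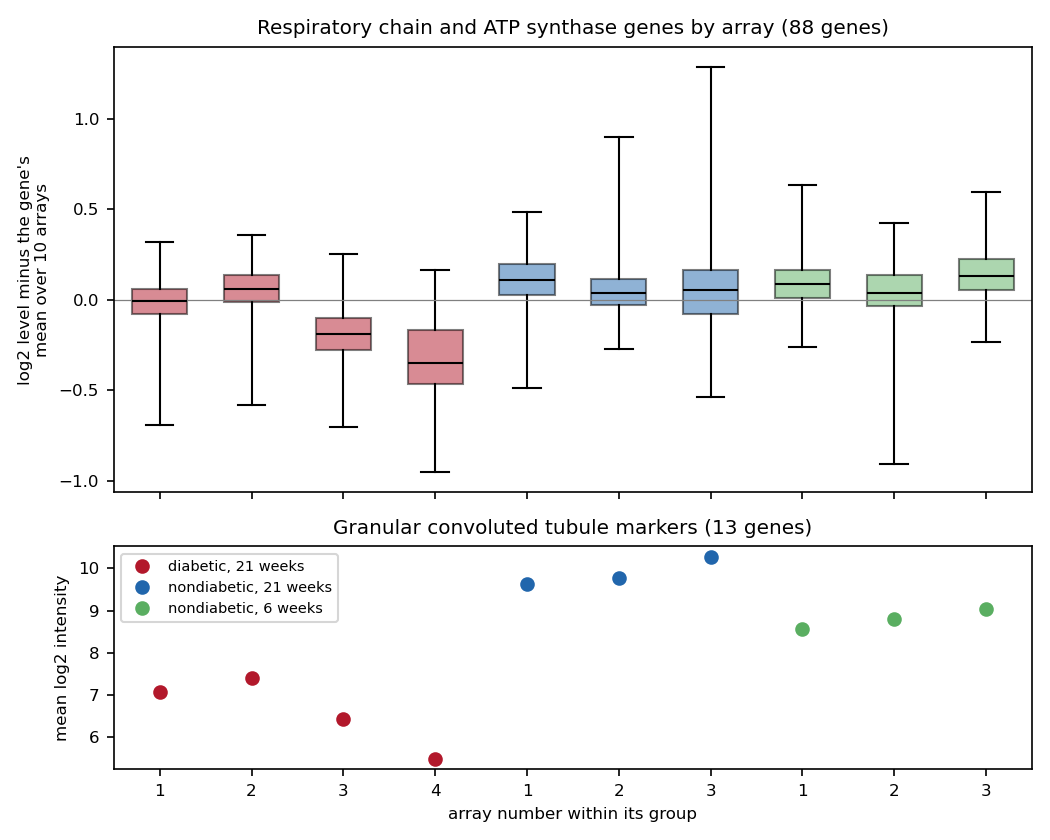
Upper panel: log2 level of each of 88 respiratory chain genes minus that gene's mean over 10 arrays, for each array (box, quartiles; line, median; whiskers, lowest and highest gene). Lower panel: mean log2 intensity of 13 granular convoluted tubule markers on the same arrays; the medians of diabetic arrays 3 and 4 are −0.19 and −0.35, and these arrays are also the lowest for the tubule markers.

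Complex I, the NADH dehydrogenase, was lower as a group without a called subunit. Of its 32 subunits 30 were lower in diabetic glands, with a median of −0.18. Of these, 5 were lower at an unadjusted p under 0.05, against 5.04% of all genes. These counts use the brightest probe sets. A dimmer probe set was higher for Ndufa11 (0.21) and Ndufa8 (0.07) and lower for Ndufa12 (−0.34). The 6 core subunits, which carry the flavin and the iron-sulphur clusters, were all lower (median −0.20), and 24 of the 26 accessory subunits were lower (median −0.18). Ndufa1, a small membrane subunit needed to assemble the complex, had the smallest p of the complex. Its levels were 6.52, 6.42, 6.16 and 6.21 in diabetic glands, against 6.69, 6.88 and 6.98 in nondiabetic glands of 21 weeks. The groups did not overlap, and all 4 diabetic mice contributed. The change was −0.52 ± 0.14 (SE), with an adjusted p of 0.0876. The adjusted p was 0.0358 after quantile normalization and 0.0495 with a trended and robust variance. Under every other alternative Ndufa1 was not called, with an adjusted p of 0.108 when no filter was applied. Ndufs7, the core subunit that holds the iron-sulphur cluster next to the ubiquinone site, had levels of 8.04, 8.10, 7.79 and 7.73 in diabetic glands, against 8.32, 8.22 and 8.31 in nondiabetic glands of 21 weeks. These groups did not overlap either, and the change was −0.37 ± 0.12 (SE; adjusted p = 0.179). Ndufv1, which binds NADH and the flavin, changed by −0.25 ± 0.14 (adjusted p = 0.4). Ndufs1, the largest subunit of the NADH-oxidising arm, changed by −0.15 ± 0.14 (adjusted p = 0.631). In both, diabetic array 4 was the lowest of the 10 arrays. The 2 subunits above 0 were Ndufb7 (0.08 ± 0.14, but −0.06 after quantile normalization) and Ndufb11 (0.07 ± 0.22), both within the spread between mice.

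Complex II, succinate dehydrogenase, also works in the tricarboxylic acid cycle, and its 4 subunits were all lower with a median of −0.24 and 0 called. Sdha, the flavoprotein that oxidises succinate, had levels of 8.15, 8.33, 7.98 and 7.78 in diabetic glands, against 8.36, 8.28 and 8.26 in nondiabetic glands of 21 weeks. The groups overlapped through diabetic array 2, and the change was −0.24 ± 0.14 (SE; adjusted p = 0.413). Sdhb, the iron-sulphur subunit, had 6.22, 6.66, 6.15 and 6.18 in diabetic glands, against 6.65, 6.58 and 6.69 in nondiabetic glands of 21 weeks. Here 3 diabetic arrays lay together and diabetic array 2 was level with the nondiabetic arrays, with a change of −0.33 ± 0.15 (SE; adjusted p = 0.309). The membrane anchors Sdhc and Sdhd changed by −0.25 ± 0.18 and −0.12 ± 0.15 (SE; adjusted p = 0.549 and 0.749).

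Complex III passes electrons from ubiquinol to cytochrome c, and 6 of its 8 subunits were lower, with a median of −0.22 and 0 called. Uqcr11, a small peripheral subunit, had levels of 5.62, 5.30, 5.44 and 5.10 in diabetic glands, against 5.75, 5.74 and 5.64 in nondiabetic glands of 21 weeks. The groups were apart by a narrow gap, and the change was −0.34 ± 0.13 (SE; adjusted p = 0.237). Uqcrc1, a core subunit on the matrix side, had 7.63, 7.69, 7.39 and 7.32 in diabetic glands, against 7.78, 7.74 and 7.82 in nondiabetic glands of 21 weeks. It did not overlap either, and its change was −0.27 ± 0.13 (SE; adjusted p = 0.326). Of the subunits that hold redox centres, Cyc1, cytochrome c1, changed by −0.14 ± 0.15 (adjusted p = 0.69), and Uqcrfs1, the Rieske iron-sulphur protein, changed by 0.01 ± 0.13 (adjusted p = 0.976; −0.13 after quantile normalization). The other subunit above 0 was Uqcrq, named after its value was seen, at 0.11 ± 0.14 (adjusted p = 0.735).

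Cytochrome c, encoded by Cycs, is the mobile carrier between complexes III and IV and is also known for its release from mitochondria during apoptosis. Its levels were 8.48, 8.54, 7.92 and 7.61 in diabetic glands, 8.50, 8.60 and 8.81 in nondiabetic glands of 21 weeks and 9.04, 8.96 and 9.15 in nondiabetic glands of 6 weeks. The 6-week arrays stood above all others, and among the diabetic arrays 1 and 2 were level with nondiabetic glands of 21 weeks while 3 and 4 were lower. The change with diabetes at 21 weeks was −0.50 ± 0.20 (SE; adjusted p = 0.259), and that between the ages without diabetes was −0.41 ± 0.22 (SE; adjusted p = 0.699). Between diabetic glands of 21 weeks and nondiabetic glands of 6 weeks Cycs fell by 0.91 ± 0.20 (SE; adjusted p = 0.0472), the 1 member called in that comparison. All 5 probe sets of Cycs, which hold 4 distinct sets of values, were lower in diabetic glands than in either nondiabetic group. Cytochrome c has many processed pseudogenes, so part of these signals may come from near-identical copies. The call in the last comparison was lost without diabetic array 3 or 4, nondiabetic 21-week array 1 or 2, or any 6-week array (adjusted p = 0.0617 to 0.177), and over all alternatives the adjusted p ran from 0.0212 to 0.177.

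The stretch upstream of Cycs is shown because Cycs is called in 1 comparison and carries recognition sequences of factors known from respiratory genes. It is the 250 bases before the first transcribed base, chr6:50566570-50566819 on the minus strand of GRCm38.p6, taken from RefSeq and written 5′ to 3′. The capitals mark, in this order, the cyclic AMP response element TGACGTCA and the core GCATGCGC of the site bound by nuclear respiratory factor 1.
Cycs: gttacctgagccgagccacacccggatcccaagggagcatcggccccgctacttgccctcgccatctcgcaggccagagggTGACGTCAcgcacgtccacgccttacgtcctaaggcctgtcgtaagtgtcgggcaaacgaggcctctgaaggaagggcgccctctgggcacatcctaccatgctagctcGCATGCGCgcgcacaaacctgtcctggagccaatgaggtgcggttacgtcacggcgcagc
For comparison, the same stretch of Uqcr11, the complex III subunit with the smallest p, is chr10:80406822-80407071 on the minus strand. Its capitals mark CCGGAAG, the core recognised by ETS factors such as GABP. It also has the nuclear respiratory factor 1 core across its start, which the printed stretch cuts.
Uqcr11: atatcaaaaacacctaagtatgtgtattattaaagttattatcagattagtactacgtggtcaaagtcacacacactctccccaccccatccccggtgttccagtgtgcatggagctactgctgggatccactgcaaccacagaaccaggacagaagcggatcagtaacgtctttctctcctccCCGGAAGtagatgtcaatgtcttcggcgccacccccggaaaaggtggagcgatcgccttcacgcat
A match describes the letters and is not evidence of binding in these glands.

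Complex IV, cytochrome c oxidase, held the called gene. All 17 tested subunits were lower in diabetic glands, with a median of −0.20, and several of them exist as tissue isoforms. The count uses the brightest probe sets. A dimmer probe set was higher for Cox5b (0.07) and lower for Cox7b (−0.29). Cox8b is the isoform of the smallest nuclear subunit that mouse heart, skeletal muscle and brown fat use. Its levels were 3.35, 3.60, 2.86 and 2.97 in diabetic glands, 4.05, 4.46 and 4.84 in nondiabetic glands of 21 weeks and 3.30, 2.65 and 3.51 in nondiabetic glands of 6 weeks. The nondiabetic glands of 21 weeks were above all others, and the diabetic glands overlapped with the 6-week glands. Cox8b fell by 1.25 ± 0.25 (SE; adjusted p = 0.0279) in diabetic against nondiabetic glands of 21 weeks. Its mean over all arrays was 3.56, near the arrays' medians of 3.53 to 3.69. It exceeded the arrays' 25th percentile, 2.58 to 2.70, on 9 of 10 arrays, and only its lowest levels lay near that percentile. The call was lost without diabetic array 3 or 4 or nondiabetic 21-week array 2 or 3 (adjusted p = 0.0942, 0.0559, 0.0689 and 0.124).

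Cox8a, the isoform found in most tissues, showed no such pattern. It had levels of 8.25, 8.19, 7.99 and 8.07 in diabetic glands, against 8.37, 8.24 and 8.03 in nondiabetic glands of 21 weeks. These groups overlapped, and the change was −0.09 ± 0.12 (SE; adjusted p = 0.771). The difference between the 2 isoforms was not tested. The upstream stretches of both are shown because Cox8b was called and Cox8a was not. Cox8b is chr7:140900447-140900696 and Cox8a chr19:7217617-7217866, both on the minus strand of GRCm38.p6 from RefSeq. Neither of these stretches holds a whole copy of the motifs searched, so no letters are in capitals. Beyond them, Cox8a has an ETS core across its start and another after it, and Cox8b has TATAAA after its start.
Cox8b: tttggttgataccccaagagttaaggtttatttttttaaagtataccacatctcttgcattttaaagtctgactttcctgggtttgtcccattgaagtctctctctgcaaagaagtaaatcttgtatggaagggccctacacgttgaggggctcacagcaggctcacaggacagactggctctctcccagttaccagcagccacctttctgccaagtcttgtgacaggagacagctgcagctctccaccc
Cox8a: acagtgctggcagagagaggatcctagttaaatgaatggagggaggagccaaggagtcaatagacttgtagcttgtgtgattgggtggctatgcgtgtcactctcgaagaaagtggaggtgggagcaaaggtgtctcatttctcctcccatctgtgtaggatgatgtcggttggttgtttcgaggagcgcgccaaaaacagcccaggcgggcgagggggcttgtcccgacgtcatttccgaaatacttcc
With the first 50 bases after the start added, the dinucleotide CpG occurs 2 times for Cox8b and 19 times for Cox8a.

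Other complex IV subunits also have muscle isoforms. Cox7a1, the heart and muscle form of its subunit, had 4.79, 4.67, 4.34 and 4.16 in diabetic glands, against 5.30, 5.28 and 4.89 in nondiabetic glands of 21 weeks. The groups did not overlap, and the change was −0.67 ± 0.19 (SE; adjusted p = 0.111). Its widespread partner Cox7a2 had 7.81, 7.81, 7.41 and 7.40 in diabetic glands, against 7.98, 7.90 and 7.82 in nondiabetic glands of 21 weeks, a change of −0.29 ± 0.14 (SE; adjusted p = 0.322). Cox6a2, the heart and muscle form of another subunit, changed by −0.08 ± 0.14 (adjusted p = 0.817), and its widespread partner Cox6a1 by −0.13 ± 0.13 (adjusted p = 0.66). Markers of skeletal muscle were low in all groups. The mean of 9 tested markers was 3.67 to 3.81 in diabetic glands, 3.73 to 3.93 in nondiabetic glands of 21 weeks and 3.84 to 3.89 in nondiabetic glands of 6 weeks. None of the 9 was called in any comparison by limma. With diabetes 2 were lower at an unadjusted p under 0.05, Ckm (−0.34) and Myh2 (−0.45), against 5.04% of all genes. The myosins Myh1 and Myh4 and the light chain Mylpf did not pass the filter. Ucp1, which defines brown fat, lay between 2.91 and 3.52 on all arrays and changed by −0.08 ± 0.15 (adjusted p = 0.826). Of the 3 tested brown adipocyte markers, Ucp1 was the 1 lower and 2 were higher, with a median of 0.15 and a maximum of 0.47. By limma 0 of them were called, and 1 was higher at an unadjusted p under 0.05, against 10.8% of all genes. Of 7 tested adipocyte markers 6 were higher with diabetes, with a median of 0.60, and 3 of them rose. Their mean was 4.70 to 5.15 in diabetic glands, 3.62 to 4.11 in nondiabetic glands of 21 weeks and 3.99 to 4.13 in nondiabetic glands of 6 weeks. The part of muscle or fat cells in the Cox8b and Cox7a1 values was not tested.

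Among the other complex IV genes, Cox4i1, the subunit that binds regulatory nucleotides, changed by −0.20 ± 0.12 (adjusted p = 0.424) and its hypoxia-responsive partner Cox4i2 by −0.19 ± 0.16 (adjusted p = 0.605). Ndufa4, once counted to complex I, changed by −0.33 ± 0.15 (adjusted p = 0.317). Cox7b and Cox6b1 changed by −0.35 ± 0.23 and −0.16 ± 0.14 (adjusted p = 0.476 and 0.605). The gene nearest to 0 among those known outside testis was Cox7a2l, which links complexes III and IV in supercomplexes, at −0.01 ± 0.12 (adjusted p = 0.975). Of the testis isoforms, Cox6b2 changed by −0.01 ± 0.16 and Cox8c by −0.30 ± 0.17 (adjusted p = 0.992 and 0.433), both at low levels.

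**Figure D2:**
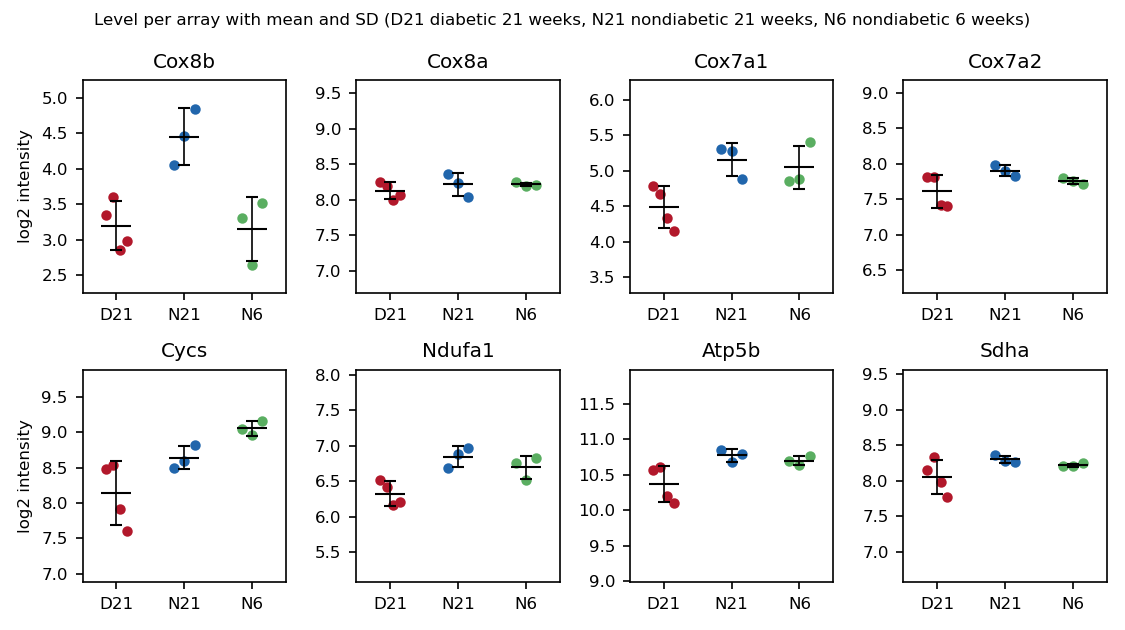
Log2 intensity on each array for 8 respiratory chain genes in diabetic glands of 21 weeks (D21), nondiabetic glands of 21 weeks (N21) and nondiabetic glands of 6 weeks (N6); points are arrays, the line is the mean and the bars are 1 SD, and the panels cover the same span at different levels. Cox8b is high only in N21, Cycs is highest in N6, and 2 of the 4 diabetic arrays are low for Cycs, Cox7a2 and Atp5b.

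Complex V, the ATP synthase, was lower in 16 of its 17 subunits, with a median of −0.23 and 0 called. There were 4 lower at an unadjusted p under 0.05, against 5.04% of all genes. Atp5b, the catalytic beta subunit, had levels of 10.56, 10.61, 10.20 and 10.10 in diabetic glands, against 10.85, 10.67 and 10.79 in nondiabetic glands of 21 weeks. The groups did not overlap, and diabetic arrays 1 and 2 lay closest to the nondiabetic arrays. The change was −0.40 ± 0.14 (SE; adjusted p = 0.201). Its partner in the catalytic head, the alpha subunit Atp5a1, changed by −0.30 ± 0.14 (SE; adjusted p = 0.321). Atp5d, the delta subunit of the central stalk, had 6.85, 6.89, 6.66 and 6.48 in diabetic glands, against 7.14, 7.06 and 7.03 in nondiabetic glands of 21 weeks. All 4 diabetic arrays were lower, and the change was −0.36 ± 0.13 (SE; adjusted p = 0.223). Of the 3 genes for the c ring of the membrane rotor, Atp5g3 changed by −0.16 ± 0.12 (adjusted p = 0.565), Atp5g1 by −0.17 ± 0.14 (adjusted p = 0.603) and Atp5g2 by 0.02 ± 0.13 (adjusted p = 0.962).

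Of the 9 assembly factors and related genes, 5 were lower and 4 higher, with a median of −0.07, and their difference from the subunits was not tested. Ndufaf5, a complex I assembly factor, was the 1 member higher at an unadjusted p under 0.05, with a change of 0.43 ± 0.15 (adjusted p = 0.191) at a low level. Ndufa4l2, the hypoxia-induced relative of Ndufa4, changed by −0.07 ± 0.17 (adjusted p = 0.872). The medians of complexes I to V stayed below 0 after quantile normalization (−0.36 to −0.28), after centring each array on its median (−0.26 to −0.20) and without diabetic array 4 (−0.19 to −0.10). Without diabetic array 4 the median of the assembly and related genes was 0.04.

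**Figure D3:**
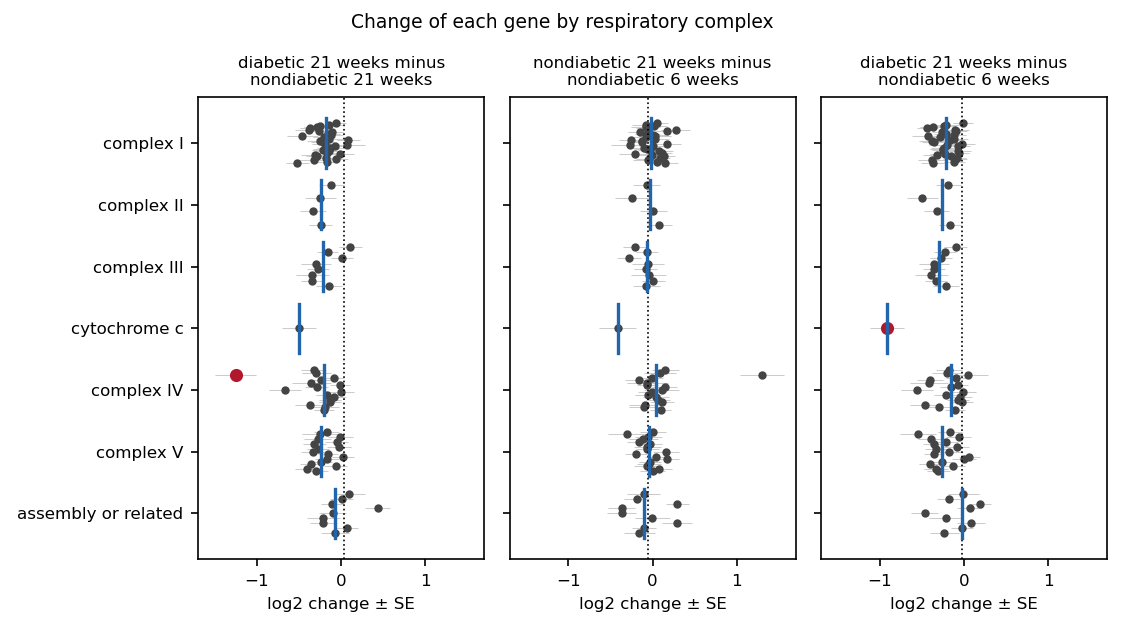
Log2 change ± SE of each of 88 genes in the 3 comparisons, grouped by respiratory complex; the blue line is the median of a complex, the dotted line is the median of all 18826 genes tested, and red points passed an adjusted p of 0.05. In the left and right panels the median of each complex lies left of the dotted line; in the middle panel the complexes lie close to it apart from cytochrome c.

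The second comparison asked how nondiabetic glands differed between 21 and 6 weeks of age. It shares the nondiabetic 21-week arrays with the first comparison, with the opposite sign. The respiratory chain genes as a group followed all other genes. Of the 88 members 54 were lower and 34 higher at 21 weeks, a median of −0.05, while 61.8% of all genes were lower, with a median of −0.06. After quantile normalization the median of the members was 0.01, with 38 lower and 50 higher. By limma 0 members were called, against 0.00531% of all genes called higher and 0.0212% called lower, and the lowest adjusted p of a member was 0.195. At an unadjusted p under 0.05, Cox8b was higher and Ndufaf5 lower, and 2.19% and 5.27% of all genes were higher and lower. The 21-week arrays lay above the 6-week arrays for 4 members and below them for 10, against 4.11% and 9.73% of all genes. Cox8b was higher at 21 weeks by 1.30 ± 0.26 (SE; adjusted p = 0.195). Uqcrfs1 changed by −0.28 ± 0.14 (SE; adjusted p = 0.689), with levels of 5.25, 5.39 and 5.20 at 21 weeks, against 5.70, 5.53 and 5.44 at 6 weeks. The 2 ages did not overlap, though the gap between them was narrow. By complex, the medians were −0.02 for I, −0.03 for II, −0.07 for III, 0.04 for IV and −0.04 for V, and after quantile normalization 0.03, 0.03, −0.04, 0.07 and 0.02.

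The third comparison set diabetic glands of 21 weeks against nondiabetic glands of 6 weeks, so age and diabetes differ together. It shares the diabetic arrays with the first comparison and the 6-week arrays with the second, and it is no independent evidence for either. Of the 88 members 83 were lower, with a median of −0.22 against −0.02 over all genes, of which 54% were lower. Cycs was called lower and 0 members were called higher, against 0.542% and 0.903% of all genes by the same limma test. At an unadjusted p under 0.05, 23 members were lower and 0 higher, against 7.23% and 7.7% of all genes. The count of 23 was 38 after quantile normalization, 32 without diabetic array 2, 12 without diabetic array 4, 13 without 6-week array 1 and 10 without 6-week array 3. After quantile normalization the median over all genes was −0.04, and the shares of all genes were not counted in these settings. The diabetic arrays all lay below the 6-week arrays for 20 members and above them for 0, against 8.49% and 8.2% of all genes. All 32 subunits of complex I were lower (median −0.22), as were all of complex II (−0.26) and complex III (−0.30), 16 of 17 of complex IV (−0.15) and 16 of 17 of complex V (−0.26). Sdhc, a membrane anchor of complex II, had 6.40, 6.36, 6.04 and 5.52 in diabetic glands, against 6.62, 6.53 and 6.58 in nondiabetic glands of 6 weeks. All diabetic arrays were lower, diabetic array 4 by the most, and the change was −0.50 ± 0.18 (SE; adjusted p = 0.226). Ndufs7 had 8.04, 8.10, 7.79 and 7.73 in diabetic glands, against 8.37, 8.33 and 8.35 in nondiabetic glands of 6 weeks. Again all diabetic arrays were lower, and the change was −0.44 ± 0.12 (SE; adjusted p = 0.114). Cox8b, called in the first comparison, differed by 0.04 ± 0.25 (adjusted p = 0.958) here. Without diabetic array 4 the median was −0.12, with 74 members lower.

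Other genes of the mitochondrion were read from lists of the same kind. The 15 tested genes of the tricarboxylic acid cycle and pyruvate dehydrogenase, which supply the chain with electrons, were all lower in diabetic than in nondiabetic glands of 21 weeks, with a median of −0.22 and 0 called. At an unadjusted p under 0.05, 2 of them were lower, against 5.04% of all genes. Without diabetic array 4 the median was −0.13. Ogdh, a subunit of the oxoglutarate dehydrogenase complex, had 8.26, 8.22, 7.79 and 7.54 in diabetic glands, against 8.35, 8.36 and 8.48 in nondiabetic glands of 21 weeks. Diabetic arrays 3 and 4 were lowest, as for the chain, and the change was −0.44 ± 0.17 (SE; adjusted p = 0.238). Of 12 carriers and electron inputs 9 were lower, with a median of −0.16 (−0.03 without diabetic array 4) and 0 called. Just 1 was lower at an unadjusted p under 0.05, against 5.04% of all genes. That gene was Slc25a4, an exchanger of ADP and ATP, with 5.27, 5.50, 5.24 and 5.71 in diabetic glands, against 5.98, 5.90 and 5.87 in nondiabetic glands of 21 weeks. Its groups did not overlap, and array 4 was the highest of the diabetic arrays, as it was for 6 of the 88 chain genes. The change was −0.49 ± 0.14 (SE; adjusted p = 0.106).

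Genes that build mitochondria rather than run the chain lay near the median of all genes with diabetes in the deposited values, but below it after quantile normalization. Of 71 proteins of the mitochondrial ribosome, which makes the mitochondrially encoded subunits, 39 were lower in diabetic than nondiabetic glands of 21 weeks (median −0.02). With 0 called, 5 were lower and 2 higher at an unadjusted p under 0.05, against 5.04% and 10.8% of all genes. Between nondiabetic glands of 21 and 6 weeks, 60 of the 71 were lower with a median of −0.15, again with 0 called. Of the 71, 7 were lower at an unadjusted p under 0.05, against 5.27% of all genes. After quantile normalization that median was −0.08. Of 24 genes of mitochondrial protein import 13 were lower with diabetes (median −0.03), and of 31 assembly factors of complexes II to V 17 were lower (median −0.03), with 0 called in each. After quantile normalization these 3 medians were −0.14, −0.15 and −0.12, beside −0.29 for the chain and −0.02 for all genes. In the third comparison Timm8a1, a small chaperone of the space between the mitochondrial membranes, fell by 0.67 ± 0.15 (SE; adjusted p = 0.0475). It was the 1 call among the 24 import genes there, while 0.542% of all genes were called lower. Whether this call holds with arrays left out or under other processing was not tested.

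Of 19 tested regulators of mitochondrial biogenesis, 9 were lower and 10 higher with diabetes (median 0.01, but −0.12 after quantile normalization), with 0 called. There were 3 lower and 3 higher at an unadjusted p under 0.05, against 5.04% and 10.8% of all genes. Among the lower ones was Esrrg, an orphan nuclear receptor that drives respiratory genes. It had 6.00, 6.09, 5.49 and 5.33 in diabetic glands, against 6.49, 6.28 and 6.10 in nondiabetic glands of 21 weeks. The groups were apart only narrowly, diabetic arrays 3 and 4 were again lowest, and the change was −0.56 ± 0.19 (SE; adjusted p = 0.179). Ppargc1a, a coactivator of such receptors, had 6.37, 6.29, 5.98 and 6.38 in diabetic glands, against 6.55, 6.61 and 6.60 in nondiabetic glands of 21 weeks, a change of −0.33 ± 0.14 (SE; adjusted p = 0.283). These groups did not overlap, and diabetic array 3 was the lowest. On the other side, Nrf1, nuclear respiratory factor 1, had 4.84, 4.88, 5.08 and 5.07 in diabetic glands, against 4.82, 4.59 and 4.40 in nondiabetic glands of 21 weeks. It was higher by 0.36 ± 0.14 (SE; adjusted p = 0.228), and Gabpb1, a subunit of GABP, by 0.40 ± 0.13 (SE; adjusted p = 0.174), without overlap in either.

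**Figure D4:**
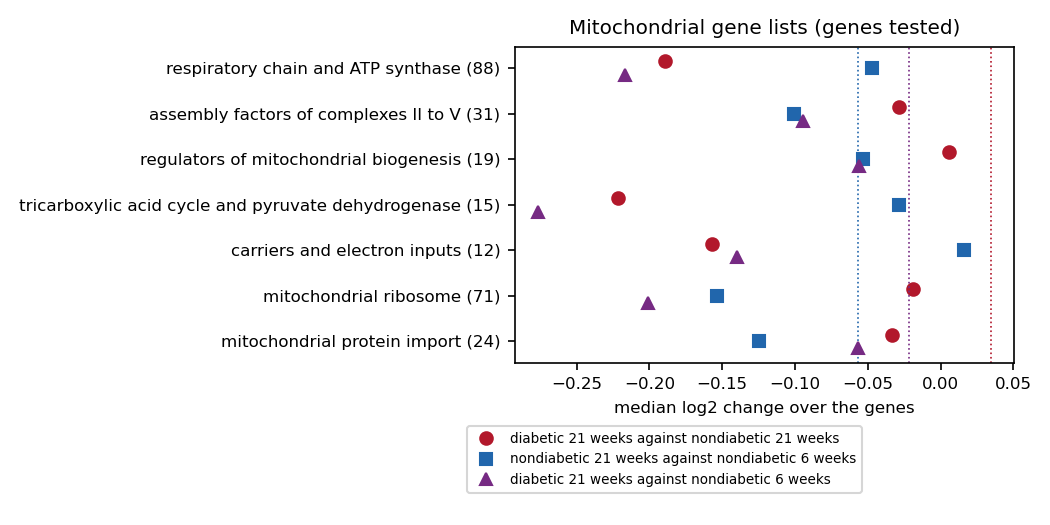
Median log2 change of the respiratory chain and ATP synthase genes and of 6 other lists of mitochondrial genes in the 3 comparisons, with the number of genes tested in brackets; dotted lines are the medians of all 18826 genes in the comparison of the same colour. With diabetes at 21 weeks the chain (−0.19), the tricarboxylic acid cycle (−0.22) and the carriers (−0.16) lie lowest, and the ribosome, import and assembly lists lie between −0.03 and −0.02.

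RefSeq promoter windows of 250 bases before and 50 bases after the start were at hand for 73 of the 91 members, 78 windows in all, beside 32851 windows of 27025 genes. The core of the nuclear respiratory factor 1 site, GCATGCGC on both strands, occurred in 16.7% of the members' windows and 2.71% of all windows. The ETS core CCGGAAG occurred in 24.4% and 8.86%, and AAGATGGCG, bound by YY1, in 8.97% and 1.4%. The oestrogen-related receptor motif CAAGGTCA stood in 5.13% and 1.56%, and the cyclic AMP response element TGACGTCA in 5.13% and 1.79%. The TATA box TATAAA, read only in the direction of transcription, was rarer among the members, at 3.85% against 8.32%. The members' windows were also richer in CpG, with a median of 20 against 7, so the shares are a description of letters and base composition.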

How the data were processed

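RNA of salivary gland cells was measured on 10 Affymetrix arrays, 1 a sample. Per the submitters' processing notes, the authors ran RMA in Affymetrix Power Tools, and the deposited log2 values hold 1 intensity for each probe set and array. Versions, RMA settings and filters are not given in the notes. RMA is meant to even out the arrays, so a change shared by most genes may not show. The deposited values were not fully even. The median over all probe sets was 3.53 on nondiabetic 21-week array 3 and 3.62 to 3.69 on the other arrays. GEO's platform annotation gave 23521 of 41345 probe sets 1 symbol, 1814 several and 16010 none, and only those with 1 symbol were used. All 91 members matched RefSeq by gene ID with 0 changed symbols. Each gene was represented by its probe set with the highest mean. Of 10 members with several probe sets, the sign of the change with diabetes at 21 weeks was the same in all sets for 7 and differed for 3. Genes were tested if at least 3 arrays had them above that array's 25th percentile, which left 18826 genes.

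Groups came from the labels. The 3 group means were fitted to all 10 arrays together in limma 3.58.1 under R 4.3.3 (lmFit, then eBayes, with 7 residual degrees of freedom and 5.61 from the prior). Each difference had a two-sided test, and limma's p-values were adjusted by Benjamini-Hochberg across all genes (threshold 0.05). The number of arrays limits the precision. Simulated data with known changes were used to test the steps. The members, the gene lists and the tests were chosen with earlier results of these data known, so none of them is independent evidence. Named genes were the members past the threshold and the member with the smallest p of each complex and comparison. A fixed set of core subunits and tissue isoforms was added, which made 34 in all. Other members, such as Ndufb11, Ndufaf5, Atp5g1, Atp5g2 and Uqcrq, and genes of the other lists were named outside this rule. The same replicate numbers occur in each group. Alternatives were other filters, the mean of probe sets, 2 groups only, other variance models, array weights, quantile normalization, median centring, the number as a block and arrays left out. The deposited table held 0 further columns of samples.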

Additional observations from a re-analysis of the deposited data

Results flagged for a closer look

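In the diabetic group, 2 named genes had 1 array far from the other 3, by a ratio of the gap to the whole range above the critical value for 4 samples. Chance gives such a ratio in about 1 in 20 groups, and 34 named genes were looked at. For Sdhb the ratio was 0.86, with levels of 6.22, 6.66, 6.15 and 6.18, so that diabetic array 2 was high and level with the nondiabetic arrays. For Cox8c, a testis isoform of complex IV, the ratio was 0.847, with levels of 2.63, 2.63, 2.59 and 2.35 near the arrays' 25th percentile.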

How the results depend on the processing

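The count of called members in diabetic against nondiabetic glands of 21 weeks was 1 and became 2 with a trended and robust variance and with quantile normalization, where Ndufa1 joined Cox8b. It became 0 without both nondiabetic 21-week array 3 and diabetic array 4 (Cox8b adjusted p = 0.133), and it ran from 0 to 1 when single arrays were left out, with a median change of −0.23 to −0.12. In diabetic glands of 21 weeks against nondiabetic glands of 6 weeks the count was 1 (Cycs) and became 0 with no filter (Cycs adjusted p = 0.06), averaged probe sets (0.144), only the 2 groups compared (0.066) and each array centred on its median (0.0564). Leaving out single arrays gave 0 to 1 and a median of −0.27 to −0.12; the call was lost without diabetic array 3 or 4, nondiabetic 21-week array 1 or 2, or any of the 3 nondiabetic 6-week arrays. The count between the ages was 0 under every alternative run, with medians of −0.06 to −0.0023 when single arrays were left out. With the replicate block the counts were 0 with diabetes at 21 weeks, 0 between the ages and 0 for both together, with Cox8b at −1.18 (adjusted p = 0.106) and Cycs at −0.74 (adjusted p = 0.117); array 4 of the diabetic group has no partner in that fit. The labels do not say that the numbers pair arrays. Same-numbered arrays of different groups correlated by −0.12 to 0.07 in their deviations from the group means. With so few arrays a group, these values cannot decide whether same-numbered arrays shared a batch. The medians kept their sign under each alternative in both comparisons with diabetic glands, while the median between the ages was 0.01 after quantile normalization. The causes of these differences were not tested. Low signals, such as those of Cox8c, Ndufaf5 and the lowest arrays of Cox8b, are limited by background.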
